A study of Caenorhabditis elegans with 23 samples.

Results

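Polyadenylated RNA of animals in which a nonsense mutation of *sid-1* had been changed back to wild-type sequence was set against that of wild-type animals of the same experiment. The 6 libraries compared, of 23 in the whole series, were chosen by strain and set from the sample labels: 3 of strain AMJ1217, *sid-1(jam86)*, here called revertant, and 3 of strain N2, wild type. A further 3 libraries of *sid-1(jam80)*, the nonsense mutant from which the revertant was made, came from the same set and are given beside the 2 groups where they bear on a result. All were mixed-stage whole animals without another mutation named in their genotype, grown on crowded but not starved plates. Both edits used Cas9 with editing of *dpy-10* as a visible marker. Each genotype was sequenced from 1 strain, the revertant being 1 of several isolates, so jam86 stands for 1 edited lineage, and whatever else differs between that lineage and N2 cannot be told apart from the history of *sid-1*. The replicates were stated to be biological, and p-values measure the spread between these libraries.

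SID-1 is a membrane protein through which double-stranded RNA enters cells of *C. elegans*, and it is known for letting RNA interference spread from one tissue to another and from parent to progeny. Once inside, double-stranded RNA is cut into small RNAs, which Argonaute proteins use to find matching messenger RNA or nascent transcripts. In the germ line such silencing can outlast its trigger for generations. A strain whose *sid-1* sequence has been restored therefore allows a look at RNA levels that differ from wild type while the gene itself is intact, and the comparison asks which genes, families and tissues those are.

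Estimated counts were summed per gene and totalled 71714435, 47078753 and 41127600 in revertant libraries, 46957589, 50671999 and 62142038 in nonsense libraries and 35320382, 57344120 and 48455767 in wild-type libraries. Levels are given in CPM, counts scaled to a common library size with TMM normalization within the set. *sid-1*, at V:5119970-5126916 (ce11) on the plus strand, had 34.1, 27.8 and 30.9 CPM in revertant animals, 16.44, 18.6 and 16.6 CPM in nonsense animals and 35.4, 35.3 and 32.7 CPM in wild type. Revertant and wild-type libraries overlapped, and the log2 fold change of revertant over wild type was -0.15 ± 0.07 (SE, adjusted p = 0.256, by the quasi-likelihood test of edgeR adjusted after Benjamini and Hochberg, as for every adjusted p below). *F14F9.5*, the next gene downstream, had 2.92, 3.01 and 2.83 CPM in revertant and 2.92, 2.57 and 3.13 CPM in wild-type animals (log2 fold change 0.03, adjusted p = 0.933). *sax-2*, a Furry-family gene of neuronal shape, had 128, 133 and 114 CPM in revertant, 68.8, 76.1 and 78.6 CPM in nonsense and 125, 155 and 130 CPM in wild-type animals. Like *sid-1*, it overlapped wild type in the revertant (adjusted p = 0.364). *dpy-10*, the co-edited collagen gene, had 40.5, 46.1 and 41.9 CPM in revertant against 40.3, 31.3 and 39.9 CPM in wild-type animals (log2 fold change 0.21, adjusted p = 0.194).

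**Figure D1:**
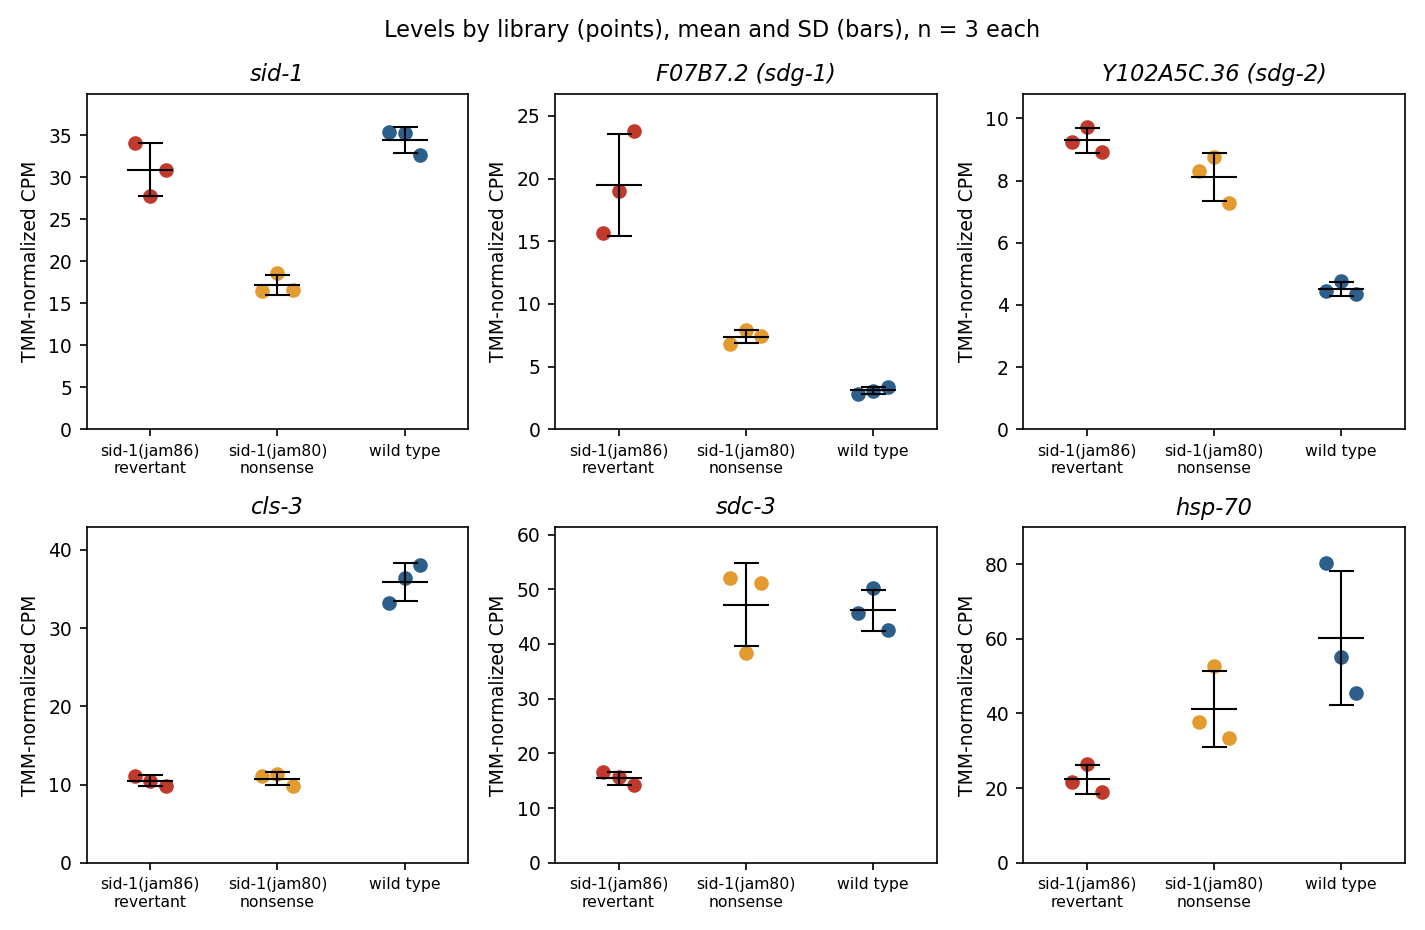
TMM-normalized CPM of 6 genes in each library of the revertant, nonsense and wild-type groups (points), with the mean and SD of 3 libraries (bars). Revertant levels of sid-1 overlap wild type, those of F07B7.2, Y102A5C.36, cls-3, sdc-3 and hsp-70 do not, and for sdc-3 the nonsense libraries lie with wild type.

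Of 16629 genes tested, 545 (3.28%) were changed in revertant animals at an adjusted p under 0.05, 396 (2.38%) higher and 149 (0.896%) lower. Most changes were small. The median log2 fold change was 0.43 among the higher genes and -0.29 among the lower ones, and 363 of the 545 changed by less than 0.5. Changes of 1 or more on the log2 scale were reached by 42 of them, 31 higher and 11 lower. The median over all genes tested was 0.02. Revertant and wild-type libraries did not overlap in 4419 (26.6%) of the genes tested, and in 542 of the 545 changed genes. By the same test, 11 genes (0.0665%) of 16547 differed between nonsense and wild-type animals, and 207 (1.25%) of 16602 between revertant and nonsense animals. The number for the revertant depended on single libraries. It was 736 without revertant replicate 1, 116 without revertant replicate 3, 214 without wild-type replicate 3, 294 without revertant replicate 2, and 330 and 333 without wild-type replicates 1 and 2. The split of higher and lower genes also moved with the scaling, being 591 and 83 with upper-quartile normalization and 491 and 434 with DESeq2.

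**Figure D2:**
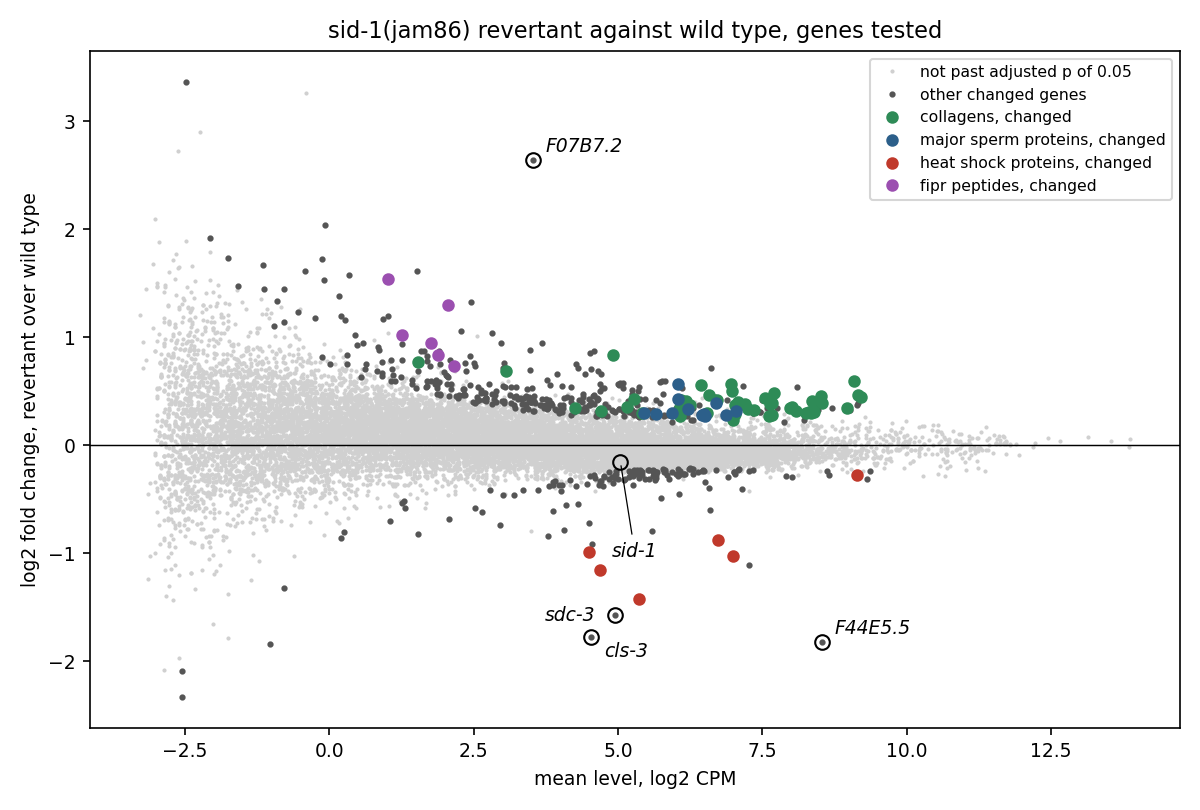
Log2 fold change of revertant over wild type (vertical) against mean level in log2 CPM (horizontal) for the genes tested, with changed genes dark and the changed members of 4 families in colour. Changed collagens and major sperm protein genes lie just above 0 at middle and high levels, and 6 changed heat shock protein genes lie below 0.

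The gene with the lowest p among the higher genes was *F07B7.2* (*sdg-1*), at V:8870259-8872003 on the plus strand, which lies in a Cer9 retrotransposon and has an identical second locus counted in the same entry. It had 15.7, 18.99 and 23.8 CPM in revertant animals, 6.83, 7.89 and 7.45 CPM in nonsense animals and 2.84, 3.09 and 3.38 CPM in wild type. All revertant libraries were above all nonsense libraries, and these above all of wild type. The revertant level was 6.22-fold that of wild type (log2 fold change 2.64 ± 0.14, SE, adjusted p = 1.01e-07), against a log2 fold change of 1.25 ± 0.11 (adjusted p = 0.000106) for nonsense animals. *F07B7.1*, whose start lies 0.274 kb downstream, had 1.17, 1.42 and 1.34 CPM in revertant, 0.483, 0.84 and 0.771 CPM in nonsense and 0.301, 0.321 and 0.54 CPM in wild-type animals. It was higher in the revertant by 1.73 ± 0.25 on the log2 scale (adjusted p = 0.00202), and the 3 nearest tested genes upstream were not changed.

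*Y102A5C.36* (*sdg-2*), at V:16926922-16927445 on the minus strand, had 9.25, 9.73 and 8.92 CPM in revertant, 8.32, 8.77 and 7.27 CPM in nonsense and 4.46, 4.77 and 4.34 CPM in wild-type animals. Its level in the revertant was 2.05-fold that of wild type (log2 fold change 1.04 ± 0.10, adjusted p = 0.000109). In the deletion set it had 9.35, 7.46 and 7.15 CPM in wild-type and 14.7, 14.4 and 13.7 CPM in *sid-1(jam113)* animals. Wild type of that set thus overlapped the revertant. The lowest revertant library was just above the highest nonsense library, and that difference did not pass the test (log2 fold change of revertant over nonsense 0.21, adjusted p = 0.249). The next 2 genes along the chromosome, both annotated as pseudogenes and named after their values were seen, were higher as well, in revertant and in nonsense animals. *Y102A5C.5* had 32.1, 31.7 and 27.5 CPM in revertant against 21.4, 21.7 and 18.7 CPM in wild-type animals (log2 fold change 0.57, adjusted p = 0.00187). *Y102A5C.6* had 33.9, 33.1 and 27.8 CPM in revertant against 19.3, 22.7 and 17.9 CPM in wild-type animals (log2 fold change 0.66, adjusted p = 0.00187).

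*cls-3*, which encodes a CLASP-family protein that binds microtubules, had the lowest p of all genes. It lies at III:9186558-9191109 on the minus strand, and its level was 11.1, 10.5 and 9.82 CPM in revertant, 11.1, 11.3 and 9.83 CPM in nonsense and 33.2, 36.3 and 38.04 CPM in wild-type animals. Revertant and nonsense animals were thus at the same level within their spread, and wild type was 3.41-fold above the revertant (log2 fold change of revertant over wild type -1.77 ± 0.08, adjusted p = 1.52e-08). *ZC84.7*, which overlaps *cls-3* on the opposite strand and was named after its values were seen, held 2, 3 and 3 reads in revertant and 6, 17 and 6 reads in wild-type libraries, and did not pass the test (adjusted p = 0.0766). Wild type itself was not at 1 level across the series. In the deletion set, which was normalized separately, *cls-3* had 72.2, 77.8 and 66.1 CPM in *sid-1(jam113)* and 11.4, 15.1 and 11.7 CPM in wild-type animals.

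*R06C1.4* and the F-box gene *fbxa-192* differed from wild type in both revertant and nonsense animals as well. *R06C1.4*, whose revertant and nonsense libraries overlapped, had 76.4, 77.0 and 77.0 CPM in revertant, 79.3, 70.6 and 71.4 CPM in nonsense and 121.6, 102.6 and 125 CPM in wild-type animals (log2 fold change of revertant over wild type -0.60 ± 0.07, adjusted p = 0.000399). *fbxa-192* had 7.15, 7.29 and 7.77 CPM in revertant, 8.58, 8.85 and 8.52 CPM in nonsense and 6.26, 4.93 and 4.69 CPM in wild-type animals (log2 fold change 0.49 ± 0.12, adjusted p = 0.0353). All revertant libraries lay between those of nonsense animals and wild type, and the difference of revertant from nonsense did not pass the test (log2 fold change -0.22, adjusted p = 0.194). The *fbxa-192* call held in 2 of the 6 fits that left out 1 library.

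*sdc-3*, which acts in sex determination and in dosage compensation of the X chromosomes, differed from wild type in the revertant and not in its nonsense parent. The gene lies at V:15039148-15048207 on the minus strand, and its level was 16.54, 15.7 and 14.2 CPM in revertant, 52.03, 38.4 and 51.1 CPM in nonsense and 45.6, 50.2 and 42.6 CPM in wild-type animals. It had the second lowest p of all genes (log2 fold change -1.57 ± 0.08, adjusted p = 4.20e-08), and revertant over nonsense was -1.59 ± 0.10 (adjusted p = 1.11e-05). In the deletion set, normalized separately, the level was 14.3, 17.6 and 15.6 CPM in *sid-1(jam113)* and 15.1, 18.02 and 14.9 CPM in wild-type animals, close to the revertant. Among its neighbours, the pseudogene *C25D7.14*, 3.73 kb away, had 0.866, 2.098 and 1.44 CPM in revertant and 0.437, 0.0714 and 0.581 CPM in wild-type animals (log2 fold change 2.04 ± 0.45, adjusted p = 0.0261). That call held in 2 of the 6 fits that left out 1 library, with log2 fold changes between 1.47 and 2.67, and was lost with DESeq2. *melo-3*, 2.28 kb away and named after its values were seen, had 7.18, 6.59 and 7.42 CPM in revertant, 4.02, 4.53 and 3.94 CPM in nonsense and 3.55, 4.28 and 4.81 CPM in wild-type animals (log2 fold change 0.74 ± 0.12, adjusted p = 0.00427). *T03D3.5* also differed from both other groups, with 9.53, 10.4 and 10.6 CPM in revertant, 5.25, 5.16 and 4.46 CPM in nonsense and 4.97, 5.26 and 5.52 CPM in wild-type animals (log2 fold change over wild type 0.95 ± 0.10, adjusted p = 0.000194).

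Genes of the cuticle, the collagen coat that the epidermis secretes and renews at each moult, made up the largest named family among the changed genes. In whole animals, here and for every family and tissue below, fewer cells of a type and less RNA per cell cannot be told apart. Of 155 *col* genes, 135 had enough counts to be tested, and 47 were higher in revertant animals, none lower, against 2.38% of all tested genes. The changed *col* genes had log2 fold changes between 0.24 and 0.84, and the median over the 135 was 0.27, against 0.02 over all genes. The largest change was that of *col-176*, with 33.6, 41.1 and 40.4 CPM in revertant and 25.6, 18.04 and 21.1 CPM in wild-type animals (log2 fold change 0.84 ± 0.11, adjusted p = 0.000986). *col-88* had 143, 151 and 148 CPM in revertant and 103.6, 94.6 and 100 CPM in wild-type animals (log2 fold change 0.57 ± 0.06, adjusted p = 0.000148). The abundant *col-117* had 563, 684 and 699 CPM in revertant and 489, 404 and 394 CPM in wild-type animals (log2 fold change 0.60 ± 0.09, adjusted p = 0.00315). In each of these genes the groups did not overlap, as in 26.6% of all genes tested. Wild type differed more between sets. In the deletion set, normalized separately, it had 64.7, 63.4 and 120 CPM of *col-117* and 10.1, 8.22 and 15.8 CPM of *col-88*. Both were below revertant and wild type here.

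Over the 135 *col* genes, the median log2 distance from the wild-type mean was 0.24, 0.24 and 0.28 in the revertant libraries, 0.18, -0.08 and -0.06 in the nonsense libraries and 0.04, -0.06 and -0.01 in the wild-type libraries. Nonsense replicate 1 thus lay near the revertant and the other two nonsense libraries near wild type. The summed level of the family was 44151, 45124 and 47147 CPM in revertant, 47274, 40645 and 41282 CPM in nonsense and 43405, 43611 and 41788 CPM in wild-type animals. Without revertant replicate 3 the number of changed *col* genes was 21, and with any other single library left out it was at least 33. Against nonsense animals, 16 *col* genes were higher in the revertant and none lower.

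Other cuticle families had fewer changed genes. Of 25 tested *dpy* genes, named for short, fat mutants and many of them collagens or collagen-processing enzymes, 7 were higher and none lower. *dpy-13* had 619, 637 and 666 CPM in revertant and 460, 478 and 531 CPM in wild-type animals (log2 fold change 0.39, adjusted p = 0.00581). *dpy-4* had 610, 613 and 653 CPM in revertant and 460, 478 and 515 CPM in wild-type animals (log2 fold change 0.37, adjusted p = 0.00581). Their levels in nonsense replicate 1, 623 and 603 CPM, were inside or near the range of the revertant. Among 70 tested Hedgehog-related genes, which encode secreted proteins of the epidermis, 4 were higher (*grl-27*, *grl-16*, *grd-6* and *grd-14*). *grl-16* had 242, 215 and 228 CPM in revertant and 172, 175.9 and 178 CPM in wild-type animals (log2 fold change 0.38, adjusted p = 0.00315). Of 32 cuticlin genes tested, which form the cuticle's non-collagen matrix, 1 was higher (*cutl-10*, log2 fold change 0.69 ± 0.11, adjusted p = 0.00496), and of 30 astacin protease genes 1 was higher (*nas-30*, log2 fold change 0.43, adjusted p = 0.0318). Shares changed were 28% of *dpy*, 5.71% of Hedgehog-related, 3.12% of cuticlin and 3.33% of astacin genes, so that the cuticlins and astacins were near the 2.38% of all genes that were higher.

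The *abu* and *pqn* genes encode proteins rich in glutamine and asparagine, several of which belong to the lining of the pharynx. Of 64 tested, 10 were higher and none lower. *abu-1* had 51.2, 37.1 and 42.2 CPM in revertant, 44.1, 38.6 and 39.9 CPM in nonsense and 24.8, 34.8 and 33.7 CPM in wild-type animals (log2 fold change over wild type 0.48, adjusted p = 0.0426). *pqn-2* had 34.4, 28.6 and 29.1 CPM in revertant and 17.7, 24.8 and 21.1 CPM in wild-type animals (log2 fold change 0.53, adjusted p = 0.0138). The median over the 12 tested *abu* genes was 0.39 in the revertant and 0.37 in nonsense animals, in which no *abu* or *pqn* gene passed the test. These calls were among the least stable. The number changed was 0 without revertant replicate 3, 3 without revertant replicate 1, and 1 and 2 without wild-type replicates 1 and 3.

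Genes of sperm were higher too. Major sperm proteins are the cytoskeletal proteins on which nematode sperm crawl, and of 30 *msp* genes tested 12 were higher and none lower, with a log2 fold change above 0 in 30 of 30 and a median of 0.28, against 0.02 over all genes. Members of a family or list were measured in the same 6 libraries. Counts of signs, here and for the markers below, are therefore not counts of independent results. *msp-40* had 69.4, 79.3 and 85.5 CPM in revertant, 56.9, 55.0 and 46.9 CPM in nonsense and 47.6, 58.9 and 51.4 CPM in wild-type animals (log2 fold change over wild type 0.57 ± 0.08, adjusted p = 0.00268). *msp-36* had 113, 119.2 and 119.3 CPM in revertant and 75.1, 98.9 and 93.6 CPM in wild-type animals (log2 fold change 0.39, adjusted p = 0.0191). The *msp* genes are near-identical copies, so the division of reads among them is uncertain, unlike their sum. The summed level was 2447, 2474 and 2500 CPM in revertant, 2318, 2170 and 2004 CPM in nonsense and 1826, 2185 and 2176 CPM in wild-type animals, and the revertant libraries were above all others.

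The small *ssq*, *nspd* and *ssp* families of sperm followed the *msp* genes. The nematode-specific peptide families *nspa* and *nspe*, whose expression in sperm was not tested, went in opposite directions. All 4 *ssq* genes, 5 of 9 tested *nspd* genes, 4 of 12 *ssp* genes and 3 of 5 tested *nspa* genes were higher. *ssq-4* had 162, 157 and 161 CPM in revertant, 137, 131 and 125 CPM in nonsense and 121.9, 122.2 and 127 CPM in wild-type animals (log2 fold change over wild type 0.37 ± 0.05, adjusted p = 0.00175). *nspd-7* had 34.96, 39.2 and 38.1 CPM in revertant and 29.4, 28.8 and 31.8 CPM in wild-type animals (log2 fold change 0.32, adjusted p = 0.0201). Of the tau-tubulin-kinase-like *ttbk* genes, 3 of 8 tested were higher (*ttbk-2.1*, *ttbk-4* and *ttbk-8.1*, log2 fold changes 0.41, 0.41 and 0.37). Of 6 tested *nspe* genes, a nematode-specific peptide family, 3 were lower. *nspe-7* had 6.56, 5.64 and 4.97 CPM in revertant, 6.26, 6.78 and 6.11 CPM in nonsense and 10.6, 10.5 and 7.78 CPM in wild-type animals (log2 fold change over wild type -0.74 ± 0.13, adjusted p = 0.00829). *nspe-2* had 1.94, 2.29 and 2.07 CPM in revertant and 4.70, 3.61 and 2.86 CPM in wild-type animals (log2 fold change -0.82, adjusted p = 0.0191). Single libraries carried many of these calls. The changed *msp* genes numbered 2 without revertant replicate 3, 4 without revertant replicate 2, and 6 and 2 without wild-type replicates 1 and 3, and no *nspe* gene was changed without revertant replicate 3.

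**Figure D3:**
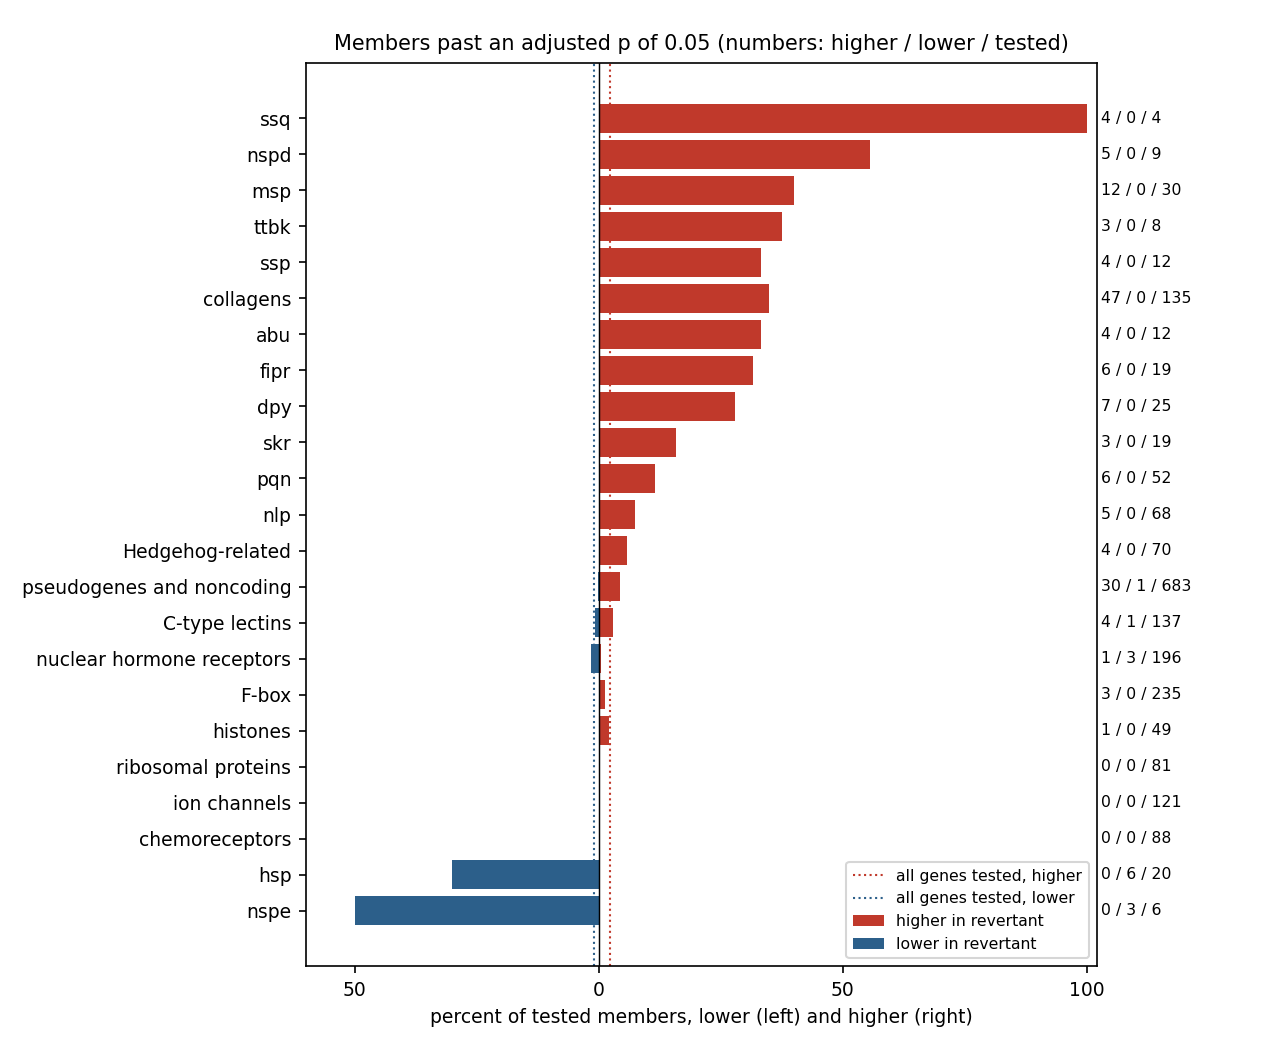
Percent of the tested members of each gene family that passed an adjusted p of 0.05, lower in the revertant to the left and higher to the right, with the counts of higher, lower and tested members at the right edge and dotted lines for all genes tested. Sperm, cuticle and fipr families extend to the right, heat shock and nspe genes to the left, and ribosomal protein, ion channel and chemoreceptor genes have none.

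Heat-inducible chaperone genes were lower in the revertant than in wild type of the same set. Chaperones of the HSP70 and small HSP16 families hold unfolded proteins and are switched on by the factor HSF-1. Of 20 tested *hsp* genes, 6 were lower and none higher, against 0.896% of all tested genes. *hsp-70*, the heat-inducible HSP70 gene, had 21.6, 26.5 and 18.98 CPM in revertant, 37.7, 52.6 and 33.3 CPM in nonsense and 80.2, 55.0 and 45.5 CPM in wild-type animals (log2 fold change over wild type -1.42 ± 0.16, adjusted p = 0.000378). *hsp-16.2* had 14.7, 19.2 and 13.7 CPM in revertant, 24.1, 31.7 and 19.3 CPM in nonsense and 45.6, 29.1 and 30.9 CPM in wild-type animals (log2 fold change -1.15 ± 0.15, adjusted p = 0.00113). In these genes, revertant and wild-type libraries did not overlap and nonsense libraries overlapped those of wild type.

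The HSP70-family neighbours *F44E5.5* and *F44E5.4*, 0.351 kb apart on opposite strands of chromosome II, are nearly identical, so the division of reads between them is uncertain. *F44E5.5* had 170, 200 and 118.96 CPM in revertant, 404, 567 and 397 CPM in nonsense and 682, 548 and 505 CPM in wild-type animals (log2 fold change over wild type -1.82 ± 0.15, adjusted p = 1.83e-05). *F44E5.4* had 75.2, 116.6 and 97.1 CPM in revertant, 157, 214 and 96.4 CPM in nonsense and 285, 161 and 178 CPM in wild-type animals (log2 fold change -1.11 ± 0.18, adjusted p = 0.00389). Deletion-set wild type had 92.8, 90.3 and 58.7 CPM of *F44E5.5*, also below the revertant. *T27E4.2*, one of the identical loci annotated as *hsp-16.1*, and *hsp-16.41* and *hsp-16.48* were lower by log2 fold changes of -1.02, -0.99 and -0.88 (adjusted p = 0.00113, 0.0059 and 0.00461). Outside the inducible genes the changes were slight, and these genes and *hsp-16.48* were named after their values were seen. *hsp-110*, a partner of HSP70, had a log2 fold change of -0.27 (adjusted p = 0.0364), *hsf-1*, the heat shock factor itself, -0.21 (adjusted p = 0.0499) and *pek-1*, a kinase of the endoplasmic reticulum stress response, -0.27 (adjusted p = 0.0435). The *hsf-1* call was lost with any library left out, and those of *hsp-110* and *pek-1* each held in 1 of 6 such fits. Over the 24 tested genes of the list of chaperones and proteostasis genes, 8 were lower, none was higher and the median was -0.11. Wild-type replicate 1 was the highest library in most of these genes, and *hsp-70* stayed changed with each library left out in turn (log2 fold changes between -1.60 and -1.16). The number of changed *hsp* genes was 3 without revertant replicate 3.

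Some genes of the epidermal and intestinal defence were higher. The *nlp-29* group and the caenacins encode small peptides that the epidermis makes on fungal infection or wounding. Of 68 tested *nlp* genes, 5 were higher and none lower, against 2.38% higher among all tested genes. Of the 5, 4 were of this group. *nlp-29* had 29.1, 27.4 and 30.8 CPM in revertant, 15.6, 15.8 and 13.9 CPM in nonsense and 14.02, 18.9 and 15.02 CPM in wild-type animals (log2 fold change over wild type 0.86 ± 0.10, adjusted p = 0.000378). Wild type of the deletion set, normalized separately, had 12.4, 18.6 and 14.5 CPM of *nlp-29*. *nlp-33* had 303, 338 and 328 CPM in revertant and 183, 229 and 254 CPM in wild-type animals (log2 fold change 0.54, adjusted p = 0.00592). *nlp-34* and *nlp-31* had log2 fold changes of 0.76 and 0.53 (adjusted p = 0.00137 for both). *nlp-25*, a neuropeptide-like gene, had 3.55, 5.06 and 3.88 CPM in revertant, 1.65, 1.19 and 1.12 CPM in nonsense and 1.61, 1.55 and 0.892 CPM in wild-type animals (log2 fold change 1.62 ± 0.20, adjusted p = 0.000679). All 5 stayed changed with each library left out in turn.

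The *fipr* genes, related to a fungus-induced peptide, were also higher. Of 29, 19 were tested, 6 were higher, none was lower and the median log2 fold change was 0.60. *fipr-10* had 5.14, 5.32 and 6.99 CPM in revertant, 2.39, 2.64 and 1.87 CPM in nonsense and 2.57, 2.61 and 1.87 CPM in wild-type animals (log2 fold change over wild type 1.30 ± 0.16, adjusted p = 0.000639). *fipr-9* had 2.44, 3.03 and 3.34 CPM in revertant, 0.571, 1.21 and 0.673 CPM in nonsense and 1.48, 0.982 and 0.623 CPM in wild-type animals (log2 fold change 1.54 ± 0.23, adjusted p = 0.00281). In the deletion set, normalized separately, wild type had 6.64, 6.18 and 7.39 CPM of *fipr-10* and 3.96, 3.57 and 3.72 CPM of *fipr-9*. Those levels overlapped the revertant for *fipr-10* and were above it for *fipr-9*. Over the 19 genes, the median log2 distance from the wild-type mean was 0.59, 0.40 and 0.70 in the revertant, 0.04, -0.03 and -0.05 in nonsense and 0.14, 0.00 and -0.14 in wild-type libraries. Without revertant replicate 3, 3 of the *fipr* genes were changed.

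Among the other defence genes, the lectin gene *clec-86* had 2.68, 2.82 and 2.61 CPM in revertant, 0.988, 0.976 and 0.853 CPM in nonsense and 1.26, 1.43 and 0.83 CPM in wild-type animals (log2 fold change over wild type 1.20 ± 0.18, adjusted p = 0.00291). Wild type of the deletion set, normalized separately, had 2.98, 2.23 and 2.82 CPM of *clec-86*, overlapping the revertant. The lysozyme gene *lys-2* had 50.4, 45.1 and 47.2 CPM in revertant and 34.9, 30.7 and 40.1 CPM in wild-type animals (log2 fold change 0.43, adjusted p = 0.0121), and the caenacin gene *cnc-8* had 39.2, 44.8 and 48.1 CPM in revertant and 29.5, 30.7 and 32.6 CPM in wild-type animals (log2 fold change 0.51, adjusted p = 0.00268). Of the 36 tested genes of the list of intestinal and epidermal immunity, 5 (13.9%) were higher, against 2.38% of all genes, and none lower. Log2 fold changes were above 0 in 26 of the 36 and below 0 in 10. The C-type lectins as a family did not follow, with 4 of 137 tested genes higher and 1 lower, near the 2.38% and 0.896% of all genes. Of 18 tested genes of the intracellular pathogen response, which viruses and microsporidia induce, none was changed (median 0.05).

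**Figure D4:**
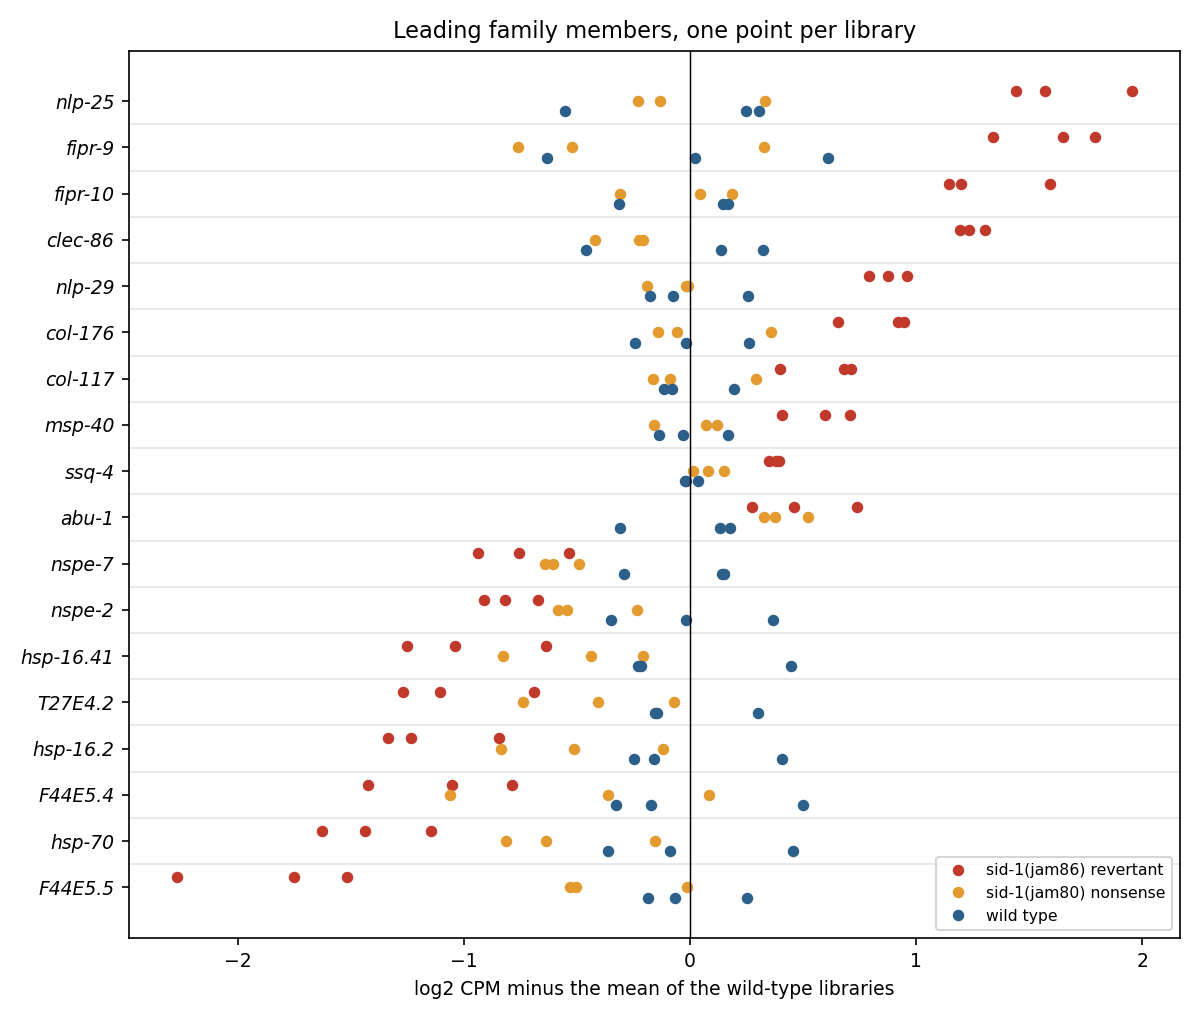
Log2 CPM of 18 genes in each revertant, nonsense and wild-type library, as the distance from the mean of the 3 wild-type libraries (points, 1 per library). Defence peptide, collagen and sperm genes of the revertant lie to the right of wild type and nspe and heat shock genes to the left. Nonsense libraries lie with wild type for nlp-29 and fipr-10 and with the revertant for abu-1 and nspe-7.

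The remaining changed genes were spread thinly over many families. Of 149 gene-name prefixes with at least 10 tested genes, 54 had a changed gene and 13 had at least 10% of their tested genes changed. Pseudogenes were 31 of the 545, 30 higher and 1 lower of 683 pseudogenes and noncoding genes tested, against 2.38% and 0.896% of all genes. Of 19 tested SKP1-related genes, which encode parts of ubiquitin ligases, 3 were higher (*skr-12*, *skr-8* and *skr-10*, log2 fold changes 0.67, 0.63 and 0.54), and of the F-box genes 3 were higher and none lower, 1.28% of those tested and below the 2.38% of all genes. Of 196 nuclear hormone receptors 1 was higher and 3 were lower, a share changed below the 3.28% of all genes. Among the lower ones was *nhr-17*, with 17.2, 17.5 and 13.8 CPM in revertant, 23.6, 31.9 and 23.6 CPM in nonsense and 35.8, 29.4 and 26.5 CPM in wild-type animals (log2 fold change over wild type -0.91 ± 0.11, adjusted p = 0.000599). *his-24*, a linker histone, was the only changed gene of 49 tested histone genes, again a share below that of all genes. It had 50.9, 45.3 and 49.5 CPM in revertant and 36.6, 33.1 and 30.9 CPM in wild-type animals (log2 fold change 0.54 ± 0.07, adjusted p = 0.00113). The histone-like gene *hil-3*, named after its values were seen, was higher by 0.46 (adjusted p = 0.0206). None of 81 ribosomal protein, 121 ion channel, 88 tested chemoreceptor, 63 glucuronosyltransferase or 40 glutathione transferase genes passed the test, and of 66 cytochrome P450 genes 1 was higher and 1 lower.

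Several of the largest fold changes rested on few reads. *C24H12.11*, a pseudogene with the largest fitted change (log2 fold change 3.37 ± 0.63, adjusted p = 0.0105), held 17, 12 and 10 reads in revertant and 0, 2 and 1 reads in wild-type libraries. *tpst-2*, a tyrosylprotein sulfotransferase gene, held 20, 15 and 14 reads in revertant and 6, 3 and 2 reads in wild-type libraries (log2 fold change 1.92, adjusted p = 0.0454). At the other end, *Y119C1B.12* held 4, 2 and 1 reads in revertant and 6, 12 and 14 reads in wild-type libraries (log2 fold change -2.33, adjusted p = 0.0318), and *F37H8.6* held 4, 2 and 2 reads in revertant and 7, 15 and 9 reads in wild-type libraries (log2 fold change -2.09, adjusted p = 0.0386). The call of *F37H8.6* was lost without any of the 3 revertant libraries, the only ones whose omission left it among the tested genes. The flavin monooxygenase gene *fmo-2* held 13, 9 and 10 reads in revertant and 27, 49 and 26 reads in wild-type libraries (log2 fold change -1.84, adjusted p = 0.00585) and stayed changed with each library left out. *rhy-1*, a negative regulator of the hypoxia factor HIF-1, and *zeel-1*, the antidote of a sperm-delivered toxin, were named after their values were seen. *rhy-1* had 13.9, 15.1 and 12.4 CPM in revertant and 21.3, 19.9 and 19.5 CPM in wild-type animals (log2 fold change -0.55, adjusted p = 0.00305), and *zeel-1* had 0.656, 0.572 and 0.518 CPM in revertant and 0.246, 0.161 and 0.249 CPM in wild-type animals (log2 fold change 1.45, adjusted p = 0.0233).

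Tissues were compared by lists of marker genes. Counts of changed markers, here and in the next 2 paragraphs, stand beside 2.38% of all genes higher and 0.896% lower. Markers of every tissue listed were present, but of 8 markers of male neurons only 3 passed the filter on low counts. Among 19 sperm markers, 2 were higher, *spe-11*, a factor that sperm bring into the embryo, and *gsp-3*, a phosphatase of sperm, and the log2 fold change was above 0 in 19 of 19 (median 0.25). The median log2 distance of these markers from the wild-type mean was 0.25, 0.21 and 0.23 in revertant, 0.09, 0.05 and -0.05 in nonsense and -0.05, -0.03 and 0.10 in wild-type libraries. *spe-11* had 10.2, 10.3 and 10.4 CPM in revertant and 7.90, 7.83 and 8.45 CPM in wild-type animals (log2 fold change 0.35, adjusted p = 0.0435). The sperm PDZ-domain gene *smz-1*, named after its values were seen, had a log2 fold change of 0.28 (adjusted p = 0.0342). Neither sperm marker stayed changed without revertant replicate 2 or 3 or without wild-type replicate 1 or 3.

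Markers of oocytes and eggshell pointed the other way. The log2 fold change was below 0 in 26 of 26 (median -0.14), and 1, the maternal RNA-binding gene *spn-4*, was lower, with 603, 557 and 527 CPM in revertant, 658, 700 and 726 CPM in nonsense and 682, 715 and 698 CPM in wild-type animals (log2 fold change over wild type -0.31 ± 0.06, adjusted p = 0.017). The list's median distance was -0.12, -0.09 and -0.20 in revertant, -0.02, 0.01 and 0.11 in nonsense and -0.09, 0.10 and 0.00 in wild-type libraries, so wild-type replicate 1 overlapped the revertant. Of 27 germ cell markers 1 was lower, the synaptonemal complex gene *syp-2* (log2 fold change -0.29, adjusted p = 0.0201), and the median was -0.11. Other maternally loaded genes, named after their values were seen, were lower by a like amount: *nos-2*, a Nanos protein of germ cell precursors, by -0.24, the Wnt gene *mom-2* by -0.25, the ubiquitin ligase gene *zyg-11* by -0.23 and the germline Y-box gene *cey-3* by -0.24 on the log2 scale (adjusted p = 0.023, 0.0371, 0.0435 and 0.0394). With upper-quartile normalization *mom-2*, *zyg-11* and *cey-3* did not pass, and without revertant replicate 3 none of these maternal and germ cell genes did.

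Of 24 hypodermal markers 4 were higher, the collagens *col-10*, *sqt-3*, *dpy-3* and *dpy-8* (log2 fold changes 0.47, 0.33, 0.37 and 0.29), with a list median of 0.19. The list's median distance was 0.14, 0.29 and 0.17 in revertant, 0.16, -0.10 and -0.15 in nonsense and 0.05, -0.13 and 0.09 in wild-type libraries. No marker passed the test among 25 of body wall muscle, 15 of pharynx, 31 of neurons, 26 of ciliated neurons, 21 of intestine, 12 tested of the early embryo, 10 of the excretory system, 8 of the somatic gonad, 7 tested of glia and 3 of coelomocytes. Their list medians lay between -0.03 in coelomocytes and 0.27 in the early embryo. Pharynx markers had a median of 0.14 in the revertant and 0.23 in nonsense animals. *vit-2*, a yolk gene of the adult intestine named after its values were seen, had 13594, 11112 and 11089 CPM in revertant and 10298, 12533 and 11978 CPM in wild-type animals (adjusted p = 0.846). The medians of the sperm and hypodermis lists were above 0, like those of the *msp* and *col* genes, and that of the oocyte list below. A shift above 0 was not particular to sperm and hypodermis. It was seen in 11 of 12 early embryo, 23 of 25 body wall muscle, 14 of 15 pharynx and 26 of 31 neuron markers. It was seen in fewer markers of ciliated neurons (15 of 26), the somatic gonad (4 of 8) and coelomocytes (1 of 3). The 4 changed hypodermal markers are themselves collagens, and *col-10* is counted in the *col* family too. The part that the mix of stages in each culture had in these differences was not tested.

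**Figure D5:**
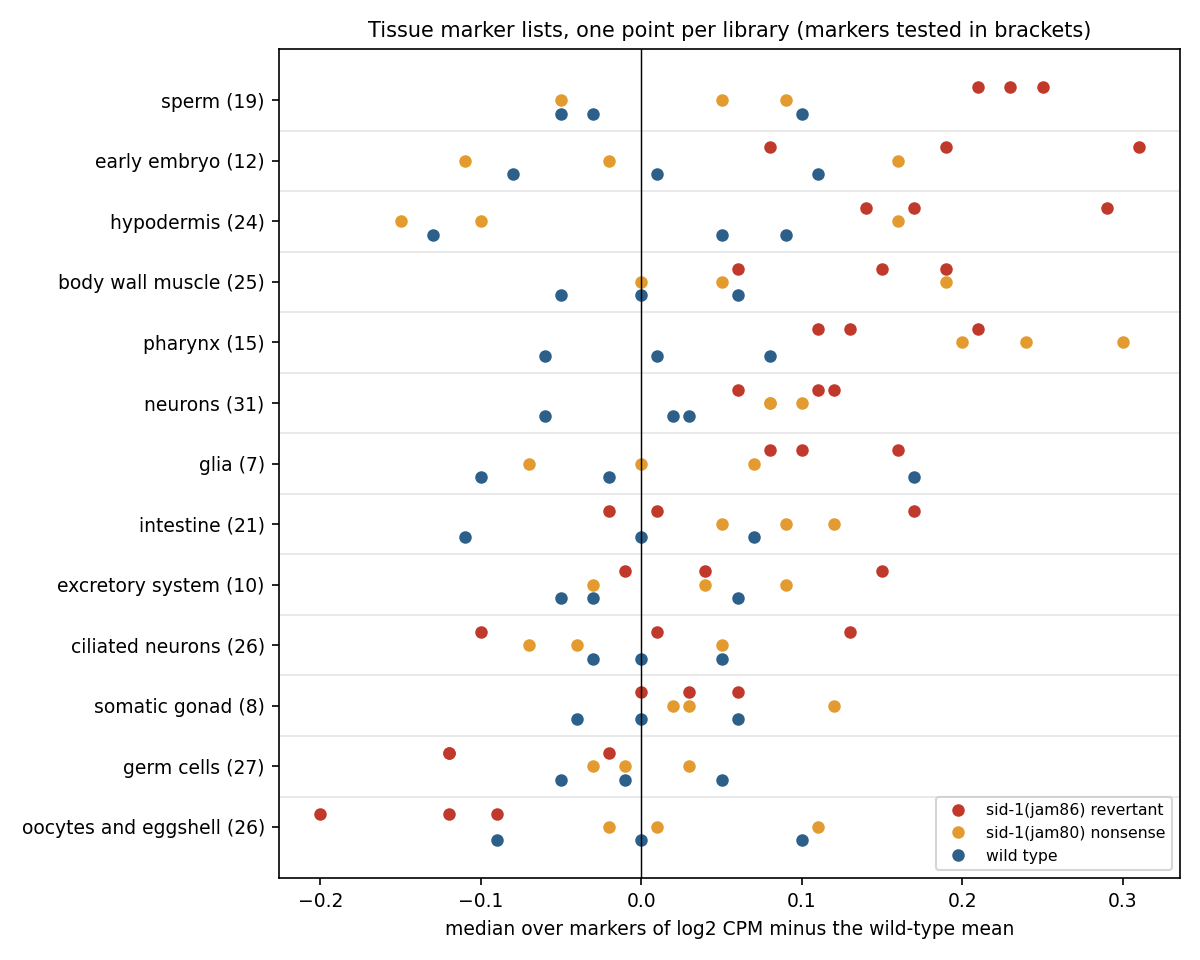
Median log2 distance of tissue marker genes from their mean in wild type (horizontal), for each revertant, nonsense and wild-type library (points). Revertant libraries lie above all wild-type libraries for sperm, hypodermis, pharynx and neurons, below or level with the lowest of them for oocytes, and overlap them for ciliated neurons and somatic gonad.

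Lists of pathways gave few changed genes. Of 23 tested genes of double-stranded RNA import and exogenous RNA interference, *sid-1* included, none was changed (median -0.07). Of 47 tested genes of germline small RNA pathways, 4 were lower and 1 was higher, against 0.896% and 2.38% of all genes (median -0.08). The Argonaute gene *sago-2* had 6.54, 7.14 and 6.29 CPM in revertant and 8.01, 9.98 and 9.34 CPM in wild-type animals (log2 fold change -0.46 ± 0.11, adjusted p = 0.0315). *set-25*, a histone H3 lysine 9 methyltransferase, had 13.3, 15.4 and 13.8 CPM in revertant and 17.7, 19.2 and 18.1 CPM in wild-type animals (log2 fold change -0.37, adjusted p = 0.0233). The histone demethylase gene *jmjd-2* and, named after its values were seen, the germ granule gene *meg-3* had log2 fold changes of -0.30 and -0.26 (adjusted p = 0.0375 and 0.0342). *alg-3*, an Argonaute of sperm development, had 37.8, 34.4 and 34.6 CPM in revertant and 24.9, 29.1 and 30.5 CPM in wild-type animals (log2 fold change 0.34, adjusted p = 0.0304). *wago-10*, an Argonaute gene outside that list, had 9.69, 9.30 and 9.96 CPM in revertant and 5.96, 7.01 and 6.85 CPM in wild-type animals (log2 fold change 0.54 ± 0.10, adjusted p = 0.00804). Without revertant replicate 3 none of the 5 listed genes was changed, nor was *wago-10*.

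Of 27 tested cell cycle genes none was changed (median -0.12), and of 34 genes of microtubules and the spindle only *cls-3* was (median -0.03). In the moulting list 1 of 26 genes was higher, *fbn-1*, a fibrillin-like gene of the larval matrix, with 37.5, 43.5 and 41.3 CPM in revertant, 45.7, 33.3 and 38.2 CPM in nonsense and 28.4, 31 and 32.2 CPM in wild-type animals (log2 fold change over wild type 0.41, adjusted p = 0.00581). In the list of fat metabolism 1 of 38 was higher, the triglyceride synthesis gene *dgat-2* (log2 fold change 0.33, adjusted p = 0.0496). The shares changed, 3.85% of the moulting and 2.63% of the fat list, were near the 3.28% of all genes. No gene was changed among 27 tested genes of oxidative, metal and DAF-16 stress.

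By chromosome, the percent of tested genes that changed was 3.28 on I, 3.40 on II, 2.84 on III, 4.07 on IV, 3.75 on V and 1.99 on X, against 3.28 over all genes, and none of 9 mitochondrial genes was changed. The 2356 tested genes of the X chromosome had a median log2 fold change of 0.05, and 35 were higher and 12 lower. The medians of the other nuclear chromosomes lay between -0.02 and 0.03.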

How the data were processed

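Messenger RNA of whole animals was sequenced from stranded paired-end libraries. The authors trimmed reads with cutadapt and quantified transcripts with Salmon, with automatic library type, for ce11/WBcel235 (versions not given in the sources used here). The deposited estimated counts and TPM are per transcript and library. Mean TPM were computed beside the counts, and no test or printed level used them. Salmon divides reads of identical copies, so members of multigene families are uncertain singly.

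Estimated counts were summed per gene by transcript name (35749 transcripts, 88 unmatched, 21982 entries, 0.00859% of counts unmatched) and rounded. Genes over 0.1 CPM in at least 3 libraries were tested with edgeR 4.0.16 in R 4.3.3 (TMM, quasi-likelihood), comparing 2 groups of 3 libraries at a time, with Benjamini-Hochberg adjustment over all genes tested and a threshold of 0.05. CPM were normalized separately within each set. Distances from wild type are medians of log2(CPM + 0.1). Depth was 41127600 to 71714435 estimated counts in revertant and 35320382 to 57344120 in wild-type libraries. No replicate pair agreed within counting noise (chi-square per degree of freedom 6.3 to 15.2). For a single value, the smallest two-sided exact permutation p of 3 against 3 is 0.1, so none is given.

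Alternatives were limma-voom (limma 3.58.1), DESeq2 1.42.0, upper-quartile scaling, other filters, a replicate block, all 9 libraries of the set in 1 fit, and each library left out. Fits were tested on simulated data. Named genes were the edited and previously described loci, the 10 highest and 10 lowest fold changes without overlap between groups, the 5 lowest p in each direction, and up to 4 changed members of each list with the largest fold changes. Any other gene was picked from its values and is said to be so. Genes, lists and families were chosen with earlier results of these data known. No sequences are printed.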

Additional observations from a re-analysis of the deposited data

Results flagged for a closer look

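The effects of jam86 and jam80, measured against the same wild-type libraries, differed for 41 named genes by the direct test of revertant against nonsense animals (edgeR's quasi-likelihood test, adjusted p under 0.05). The named genes were 125 changed and 6 not changed between revertant and wild type. Most were named for values of these same revertant libraries. The 41 can therefore not be read against the 1.25% of all 16602 genes tested that differed between revertant and nonsense animals. The values are log2 fold changes of revertant over nonsense. Among *nlp* and defence genes they were *fipr-9* 1.84, *nlp-25* 1.68, *clec-86* 1.54, *fipr-10* 1.35, *fipr-5* 1.25, *fipr-8* 1.16, *nlp-29* 0.96, *nlp-34* 0.54, *nlp-33* 0.51, *cnc-8* 0.50, *nlp-31* 0.50 and *lys-2* 0.37. Among cuticle genes they were *col-176* 0.79, *col-58* 0.72, *cutl-10* 0.68, *col-117* 0.59, *col-88* 0.45 and *col-10* 0.43. Among sperm and nematode-specific peptide genes they were *nspa-8* 0.80, *msp-40* 0.57, *nspd-10* 0.45, *msp-36* 0.32, *msp-10* 0.32, *ssq-1* 0.32, *ssq-4* 0.30 and *ssq-3* 0.26. Other genes higher in the revertant were *K09E3.4* 1.46, *F07B7.2* 1.40, *dct-7* 1.09, *T03D3.5* 1.05, *flp-14* 0.89, *sid-1* 0.86, *melo-3* 0.77, *sax-2* 0.75, *fbxa-107* 0.62 and *Y47D7A.15* 0.45. Genes lower in the revertant were *sdc-3* -1.59, *F44E5.5* -1.47, *hsp-70* -0.87, *nhr-17* -0.69 and *spn-4* -0.30. *sid-1* and *sax-2* did not pass the test between revertant and wild-type animals. Groups of 3 libraries were not tested for outlying samples.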

How the results depend on the processing

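No changed gene among those named turned its direction under any alternative run, while *F14F9.5* and *vit-2*, neither of them changed, ran from -0.06 to 0.09 and from -0.06 to 0.10 on the log2 scale with 1 library left out. Of 125 changed named genes, 46 stayed changed with each library left out in turn, 37 in every setting, and 78 were lost without revertant replicate 3. The 545 genes changed between revertant and wild-type animals became 925 with DESeq2 and 42 with a log2 fold change of at least 1 required as well, and 116 to 736 with 1 library left out. The percent of them that were higher, 72.7, was 53.1 with DESeq2, 58.6 with all 9 libraries in 1 fit and 87.7 with upper-quartile scaling. The 207 between revertant and nonsense animals, 77.8% of them higher, became 565 with DESeq2, 54.2% of them higher, 472 without a filter, 32 with the fold required, and 57 to 777 with 1 library left out. The 11 between nonsense and wild-type animals became 34 with DESeq2, 28 without a filter, 17 with all 9 libraries, 3 with the fold required, and 7 to 22 with 1 library left out. Their split of 6 higher and 5 lower was 25 and 9 with DESeq2, 10 and 11 with the replicate block, 5 and 6 without wild-type replicate 1 and 2 and 8 without wild-type replicate 3. With the replicate block these 3 counts were 404, 88 and 21, and 31 of the 125 named genes were lost. Same-numbered revertant and wild-type libraries deviated together with correlations of -0.07, 0.04 and -0.04. Taken across all genes, these cannot exclude a batch shared in some genes. The numbers are not stated to mark one, and the samples were treated as unpaired. Genes under about 1 CPM rest on few reads, and small changes there were not detectable at this depth.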
